A study of Mus musculus with 8 samples.

Results

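Coagulation and fibrinolysis genes, which belong to haemostasis, the process that starts, limits and dissolves blood clots, were measured in cultured endothelial cells of mouse brain vessels. The 9 genes were given by name: Thbd, Procr and Tfpi, which restrain coagulation, F3, F8 and Vwf, which promote it, and Plat, Plau and Plaur, which serve fibrinolysis. All 9 were found among the 54532 genes of the deposited tables, and all 9 passed the filter on low values with 11864 genes in all. The libraries were 4 labelled Cavb3 KO and 4 labelled wild type, from primary brain microvascular endothelial cells (BMECs) that the submitters describe as independent biological replicates. The knockout concerns Cacnb3, the gene of Cavβ3, a cytoplasmic subunit that assists calcium channels opened by voltage. Every culture of both groups received the same medium (DMEM), which held serum from calf fetuses, a fibroblast growth factor, antibiotics and heparin, itself an anticoagulant. The sources used here do not state the allele, strain, sex or age of the mice, or whether animals were pooled.

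Resting endothelium holds blood fluid by carrying anticoagulant proteins on its surface, and it stores or releases proteins that promote clotting after injury. Thrombomodulin (Thbd) binds thrombin, the endothelial protein C receptor (Procr) presents protein C to that complex, and activated protein C then cuts the cofactors of the clotting cascade. Tissue factor pathway inhibitor (Tfpi) blocks tissue factor (F3), the trigger of the cascade. Tissue plasminogen activator (Plat) and urokinase (Plau, which binds its receptor Plaur) make plasmin, the protease that dissolves fibrin. In brain, thrombomodulin is known to be sparse in small vessels, and tissue plasminogen activator also acts outside the blood.

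Of these genes, 3 have the consensus of the AP-1 factors (FOS and JUN), TGANTCA, just before their start. The motif reads the same on both strands. Of the 32851 RefSeq windows of the same length, 6.75% hold it. RefSeq windows (GRCm38.p6) were found for 5 of the 9 genes, Procr, Tfpi, F3, F8 and Plaur, with 6 windows in all because Tfpi has a pair, and the motif lay in the windows of Procr, F3 and Plaur. The 250 bases before the start are shown for these 3 genes because their windows hold the motif. Procr and Plaur had the smallest limma adjusted p-values of the 9 between replicate sets, while F3 passed neither that test nor the one between genotypes. Capitals mark the motif, and a match is a description of the letters and not of a bound site.
Procr, chr2:155750967-155751216, plus strand: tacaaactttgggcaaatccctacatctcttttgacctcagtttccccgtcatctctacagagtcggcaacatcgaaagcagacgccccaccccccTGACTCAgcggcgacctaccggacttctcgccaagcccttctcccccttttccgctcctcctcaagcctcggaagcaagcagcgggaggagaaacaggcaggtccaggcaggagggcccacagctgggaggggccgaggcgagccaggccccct
F3, chr3:121723287-121723536, plus strand: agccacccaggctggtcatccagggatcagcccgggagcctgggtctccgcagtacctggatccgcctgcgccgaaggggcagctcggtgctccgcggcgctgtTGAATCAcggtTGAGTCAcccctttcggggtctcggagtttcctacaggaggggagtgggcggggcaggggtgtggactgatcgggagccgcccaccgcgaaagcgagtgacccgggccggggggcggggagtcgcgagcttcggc
Plaur, chr7:24462233-24462482, plus strand: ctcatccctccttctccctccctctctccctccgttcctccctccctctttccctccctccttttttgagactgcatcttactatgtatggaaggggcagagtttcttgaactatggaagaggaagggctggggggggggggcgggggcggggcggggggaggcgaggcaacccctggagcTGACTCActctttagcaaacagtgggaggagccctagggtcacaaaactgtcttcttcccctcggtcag

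Cacnb3 did not separate the labels over all libraries. It stood at 1.70, 2.09, 2.47 and 1.77 FPKM (fragments per kilobase of exon, scaled to a fixed number of fragments per library) in replicates 1 to 4 labelled Cavb3 KO, against 3.38, 3.56, 1.12 and 0.980 FPKM in replicates 1 to 4 labelled wild type. Cacnb3 was thus lower in Cavb3 KO within replicates 1 and 2 and higher within replicates 3 and 4, without overlap in either. The ratios of Cavb3 KO to wild type means were 0.546 and 2.02, and limma's test of that difference gave an adjusted p of 0.335. The groups are therefore named by their labels, and each direction between them rests on those labels. A second division ran through both labels: Ddx3y, a gene of the Y chromosome, was listed at 0 FPKM in all 4 libraries of replicates 3 and 4 but had 6.98 to 9.48 FPKM in all 4 of replicates 1 and 2. The labels name no batch, so these are called replicate sets, and sex, batch and day of culture cannot be told apart within them. Xist, a gene of the X chromosome, did not fall below 12.4 FPKM in any library. It averaged 13.9 ± 1.41 FPKM over the libraries with Ddx3y, against 37.7 ± 6.54 FPKM over those without it (SD, n = 4 each). Libraries with Ddx3y therefore held Xist RNA as well, and how the sexes were divided or mixed among the cultures was not tested. Depth, as implied by the steps between values, was 23491645 to 33813070 reads or fragments in the Cavb3 KO libraries and 24946878 to 28475518 in wild type. All 10 endothelial markers examined were expressed, with summed levels of 1543 to 1834 FPKM in the Cavb3 KO libraries and 1734 to 2374 FPKM in wild type. Neuron, oligodendrocyte and hepatocyte markers summed to at most 0.658 FPKM in any library. In bulk libraries fewer cells of a type and less RNA per cell cannot be told apart.

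Plat, Procr and Plaur had the highest levels per length, and the procoagulant genes F3, Vwf and F8 the lowest. Plat was the highest of the 9, at 313 FPKM over the 8 libraries and within the top 0.742% of tested genes, followed by Procr (188 FPKM), Plaur (124), Thbd (63.0), Plau (20.6), Tfpi (15.8), F3 (6.93), Vwf (4.99) and F8 (1.03). The ranges of Plat and Procr, of Tfpi and F3, and of Vwf and F8 did not overlap. The other neighbours in this order overlapped across libraries, although Procr exceeded Plaur, Plaur exceeded Thbd and Thbd exceeded Plau within each of the 8 libraries. Plau exceeded Tfpi in 7 of 8 and F3 exceeded Vwf in 6 of 8. Recovered reads ran from 190 to 985 per library for F3 and from 224 to 303 for F8, the least covered genes, and from 40146 to 66303 for Plat. Vwf, which encodes von Willebrand factor and is used as an endothelial marker, ranked 7146 of 11864 by level.

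**Figure D1:**
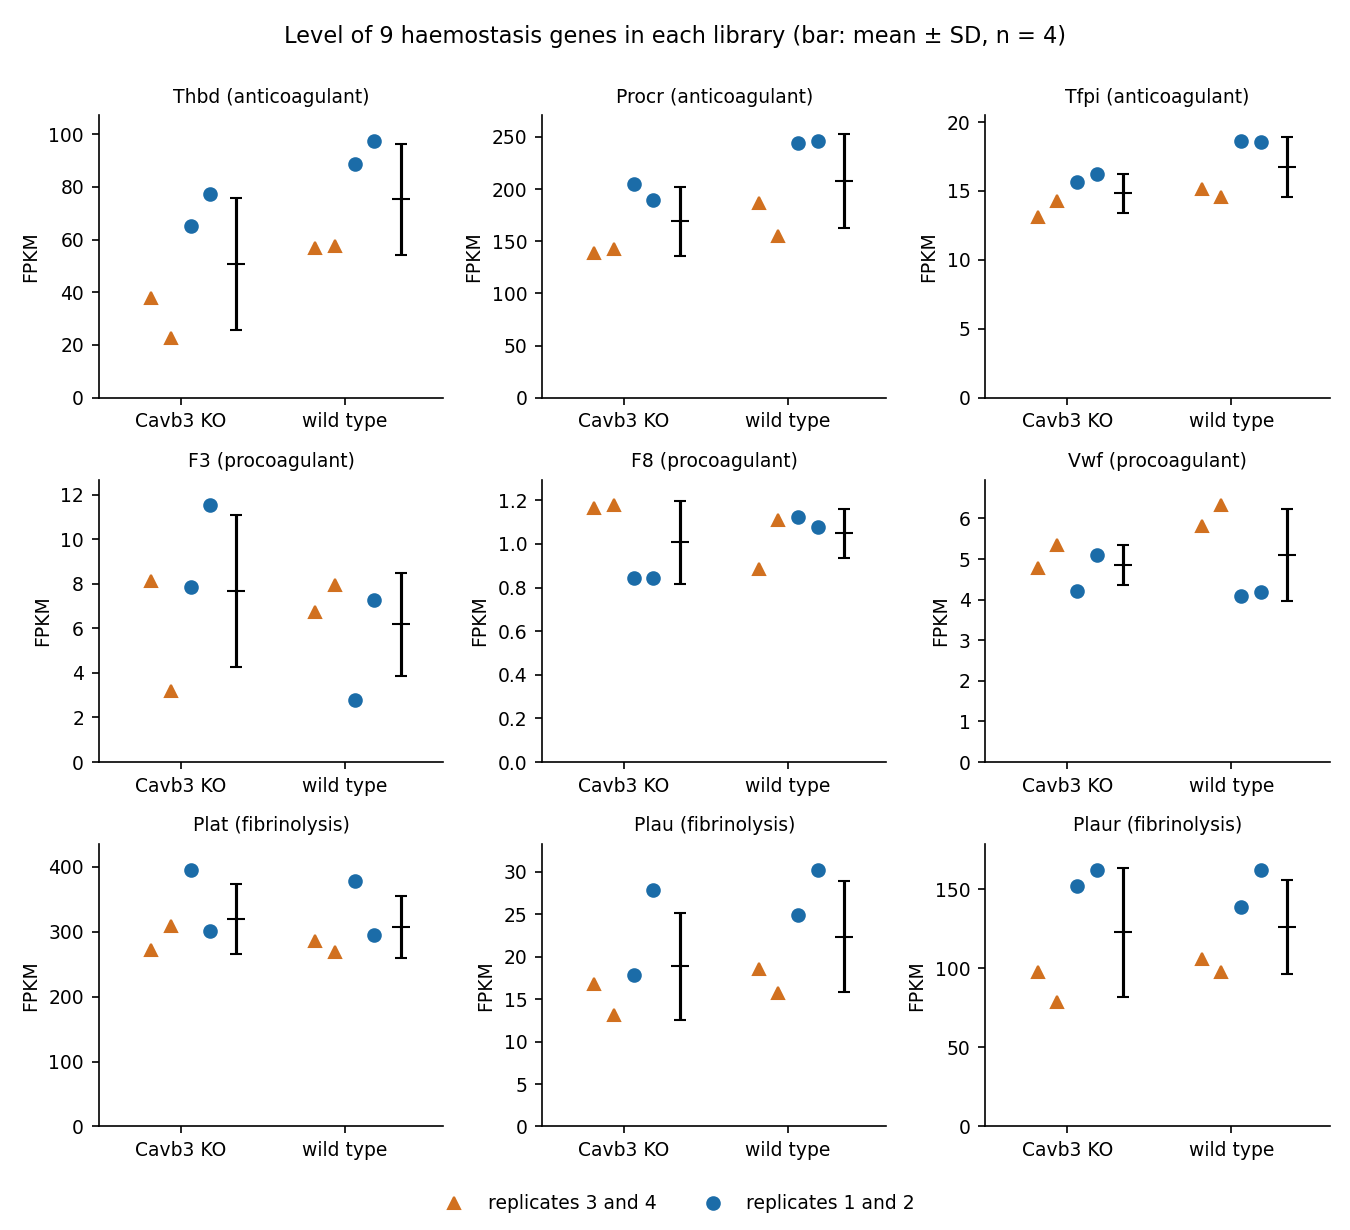
Level in FPKM (vertical axis, from 0) of each of the 9 genes in each library, Cavb3 KO left of wild type, with triangles for replicates 3 and 4, circles for replicates 1 and 2 and bars for the mean ± SD (n = 4). Within each genotype, triangles lie below circles for Thbd, Procr, Tfpi, Plau and Plaur, and no gene has genotype groups that do not overlap.

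Thbd, Procr and Tfpi, the anticoagulant genes of the 9, had lower means in the Cavb3 KO libraries, and none passed the test. Thbd (ENSMUSG00000074743, chromosome 2, 148404466 to 148408188, minus strand, GRCm38) was at 65.1, 77.2, 37.9 and 22.5 FPKM in replicates 1 to 4 labelled Cavb3 KO, against 88.8, 97.5, 56.9 and 57.7 FPKM in wild type. The groups overlapped over all 8 libraries, but each Cavb3 KO library lay below both wild type libraries of its own replicate set. The means were 50.7 ± 25.0 FPKM in Cavb3 KO and 75.2 ± 21.0 FPKM in wild type (SD, n = 4 each). The limma estimate on the log2(FPKM + 1) scale, on which the limma differences here are given while ratios are of plain FPKM, was -0.67 ± 0.38 (SE; 95% confidence interval -1.54 to 0.20, adjusted p = 0.921). Replicate 4 labelled Cavb3 KO was the lowest library, and without it the estimate was -0.34. Leaving it out made the replicate sets unequal between the genotypes. With the replicate set as a term and the same library left out, the estimate was -0.47 (limma adjusted p = 0.0555).

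Procr (ENSMUSG00000027611, chromosome 2, 155751117 to 155755471, plus strand) was at 204, 189, 139 and 143 FPKM in Cavb3 KO replicates 1 to 4, against 244, 246, 186 and 155 FPKM in wild type. Its means were 169 ± 32.9 and 208 ± 44.8 FPKM in Cavb3 KO and wild type (SD, n = 4 each), with a log2 difference of -0.29 ± 0.19 (SE; 95% confidence interval -0.73 to 0.15, limma adjusted p = 0.926). Tfpi (ENSMUSG00000027082, chromosome 2, 84432855 to 84476775, minus strand) varied least among the anticoagulants, at 15.7, 16.3, 13.1 and 14.3 FPKM in Cavb3 KO, against 18.6, 18.6, 15.2 and 14.6 FPKM in wild type. Its log2 difference was -0.16 ± 0.11 (SE; 95% confidence interval -0.41 to 0.09, limma adjusted p = 0.926). As for Thbd, both genes overlapped between the genotypes over all libraries, and within each replicate set every Cavb3 KO library lay below every wild type library.

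With the replicate set as a term, the same 3 estimates had narrower intervals that left out 0, from -1.08 to -0.26 for Thbd, from -0.45 to -0.14 for Procr and from -0.28 to -0.04 for Tfpi. Their limma adjusted p-values were 0.108, 0.0839 and 0.169, so 0 of the 9 genes were called, beside 0.632% of tested genes. At an unadjusted p under 0.05, Thbd, Procr and Tfpi were the 3 of 9 genes that passed, all lower, where 19.1% of tested genes passed in either direction and 13.3% were lower. The pattern of lower levels without overlap within both replicate sets was met by 3 of the 9 genes, Thbd, Procr and Tfpi, and by 12.2% of all tested genes, and the opposite pattern by 0 of the 9 and by 5.61%. The ratio of Cavb3 KO to wild type at the same replicate number was 0.733, 0.792, 0.667 and 0.389 for Thbd, 0.838, 0.769, 0.746 and 0.922 for Procr and 0.841, 0.876, 0.866 and 0.981 for Tfpi. Plau was also lower at all 4 replicate numbers, a pattern that 17.3% of tested genes share, while 0 of the 9 were higher at all 4 (8.75% of tested genes were). The endothelial markers had estimates of the same sign, all 10 of them negative between the genotypes, with a median of -0.27, beside -0.02 over all tested genes. The 5 platelet and megakaryocyte markers summed to 3.08 to 5.58 FPKM in the Cavb3 KO libraries and to 1.81 to 2.99 FPKM in wild type, and 0 of the 5 passed the filter. The 6 pericyte markers summed to 2.84 to 5.45 FPKM in Cavb3 KO and to 2.33 to 2.97 FPKM in wild type. Most of that sum was Pdgfrb, the only one of the 6 that passed the filter, at 2.80 to 5.24 FPKM in Cavb3 KO and 2.12 to 2.79 FPKM in wild type. The 5 astrocyte markers summed to 15.5 to 19.4 FPKM in Cavb3 KO and to 15.6 to 19.1 FPKM in wild type, mostly as Slc1a3. The fibroblast and meninges markers summed to 2.90 to 6.66 FPKM in Cavb3 KO and to 2.92 to 4.99 FPKM in wild type. The smooth muscle markers summed to 1.80 to 13.8 FPKM in Cavb3 KO and to 2.05 to 28.5 FPKM in wild type. Microglia and macrophage markers summed to 3.51 to 6.54 FPKM in Cavb3 KO and to 3.57 to 8.87 FPKM in wild type. The part of RNA of any of these cell types in the haemostasis values was not tested.

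F3, F8 and Vwf, the procoagulant genes of the 9, showed no shared direction. F3 (ENSMUSG00000028128, chromosome 3, 121723537 to 121735048, plus strand) was at 7.84, 11.5, 8.13 and 3.20 FPKM in Cavb3 KO replicates 1 to 4, against 2.79, 7.28, 6.75 and 7.93 FPKM in wild type. Its highest and lowest libraries differed 4.13-fold, and each genotype held 1 low library, replicate 4 in Cavb3 KO and replicate 1 in wild type. The log2 difference was 0.24 ± 0.38 (SE; 95% confidence interval -0.63 to 1.11, limma adjusted p = 0.969), and it was -0.04 without replicate 1 labelled wild type. Within replicates 1 and 2 it was 0.91, and within replicates 3 and 4 it was -0.43, and limma's test of that difference gave an adjusted p of 0.866. The ratio of Tfpi to F3, inhibitor to trigger, ran from 1.41 to 4.47 in Cavb3 KO and from 1.84 to 6.68 in wild type, so the ranges overlapped.

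Vwf (ENSMUSG00000001930, chromosome 6, 125546774 to 125686679, plus strand) was at 4.22, 5.11, 4.77 and 5.36 FPKM in Cavb3 KO replicates 1 to 4, against 4.09, 4.19, 5.82 and 6.33 FPKM in wild type. Its Cavb3 KO range lay inside the wild type range, and the log2 difference was -0.04 ± 0.14 (SE; 95% confidence interval -0.37 to 0.28, limma adjusted p = 0.989). F8 (ENSMUSG00000031196, chromosome X, 75172715 to 75382615, minus strand) encodes coagulation factor VIII, which circulates bound to von Willebrand factor. It was at 0.842, 0.845, 1.16 and 1.18 FPKM in Cavb3 KO, against 1.12, 1.08, 0.883 and 1.11 FPKM in wild type, a log2 difference of -0.03 ± 0.11 (SE; 95% confidence interval -0.29 to 0.22, limma adjusted p = 0.989). Both genes reversed sign between the replicate sets in opposite senses, with Cavb3 KO to wild type ratios of set means of 1.13 and 0.833 for Vwf and of 0.767 and 1.17 for F8 in replicates 1 and 2 and in replicates 3 and 4. Limma's test of that difference was not passed by either (adjusted p = 0.822 and 0.877), and it was passed by 0 of the 9 genes and by 0.00843% of tested genes (0 of the 9 and 6.2% at an unadjusted p under 0.05, and 0 of the 9 with limma-voom).

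Plasminogen activators and the urokinase receptor did not pass between the genotypes either. Plat (ENSMUSG00000031538, chromosome 8, 22757727 to 22782844, plus strand) was at 396, 301, 271 and 309 FPKM in Cavb3 KO replicates 1 to 4, against 378, 295, 286 and 269 FPKM in wild type. Replicate 1 was the highest in both groups, and the log2 difference was 0.05 ± 0.15 (SE; 95% confidence interval -0.29 to 0.39, limma adjusted p = 0.987). Plau (ENSMUSG00000021822, chromosome 14, 20836660 to 20843385, plus strand) was at 17.9, 27.8, 16.7 and 13.1 FPKM in Cavb3 KO, against 24.8, 30.2, 18.5 and 15.7 FPKM in wild type, with a log2 difference of -0.24 ± 0.26 (SE; limma adjusted p = 0.954). With the replicate number as a block, its 95% confidence interval was -0.42 to -0.05 (limma adjusted p = 0.220). In that fit 4 of the 9 genes, Thbd, Procr, Tfpi and Plau, reached an unadjusted p under 0.05, beside 16.1% of tested genes. Plaur (ENSMUSG00000046223, chromosome 7, 24462484 to 24475968, plus strand), at 152, 162, 97.5 and 78.5 FPKM in Cavb3 KO against 139, 162, 106 and 97.6 FPKM in wild type, had a log2 difference of -0.07 ± 0.26 (SE; limma adjusted p = 0.989). For Plau and Plaur the genotype groups overlapped, and replicates 1 and 2 held the highest values of each but for Plau in Cavb3 KO replicate 1. Receptor RNA exceeded ligand RNA per length throughout, with a Plaur to Plau ratio of 5.37 to 8.53 over the 8 libraries. Over the genotypes, limma called 0 of the 9 genes and 0% of all tested genes, 0 of the 9 reached an unadjusted p under 0.05 (5.45% of tested genes did), and limma-voom on recovered reads also called 0 of the 9. Over all 8 libraries, 0 of the 9 genes had every Cavb3 KO value below every wild type value (2.5% of tested genes did) and 0 had every value above (1.64% did).

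**Figure D2:**
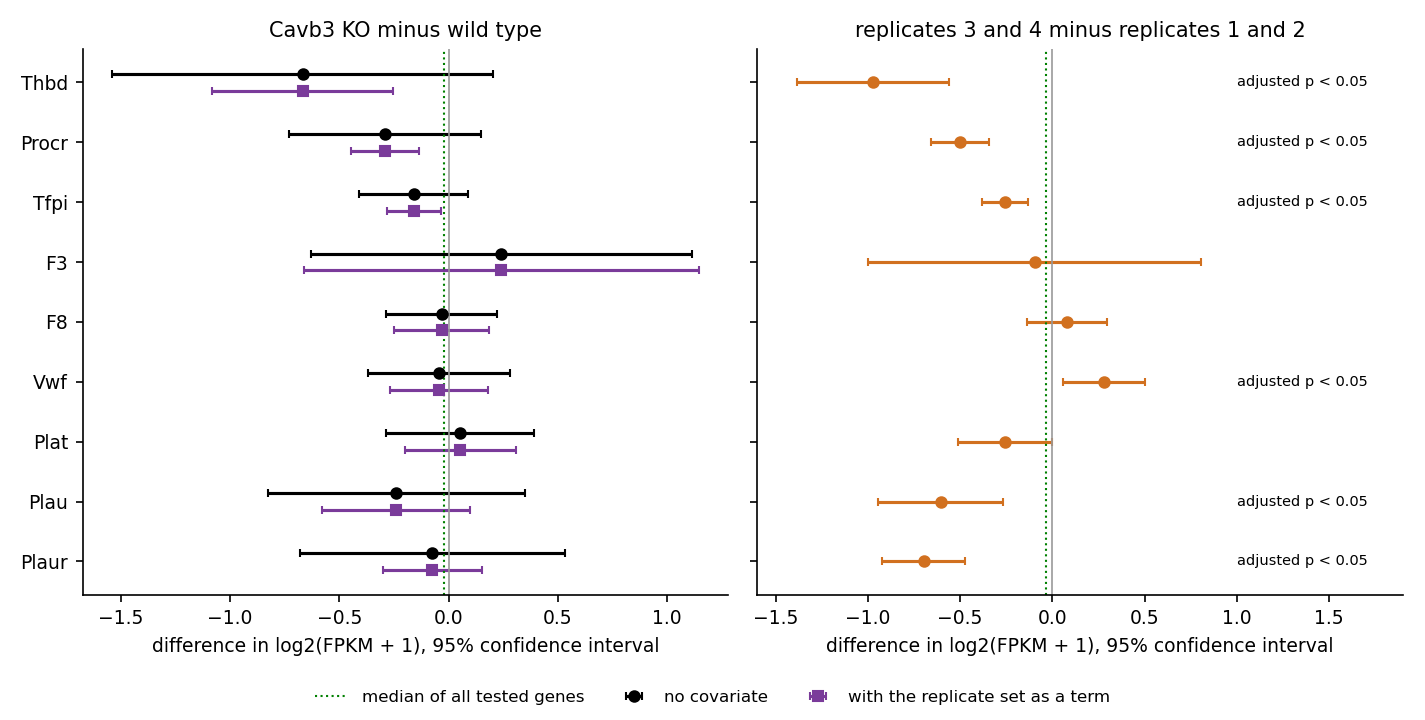
Estimated differences in log2(FPKM + 1) with 95% confidence intervals (horizontal axis) for each gene, between genotypes at left, without a covariate (circles) and with the replicate set as a term (squares), and between replicate sets at right. Dotted lines mark the median of all tested genes at -0.02 and -0.04, and 6 genes passed at right while none passed at left.

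**Figure D3:**
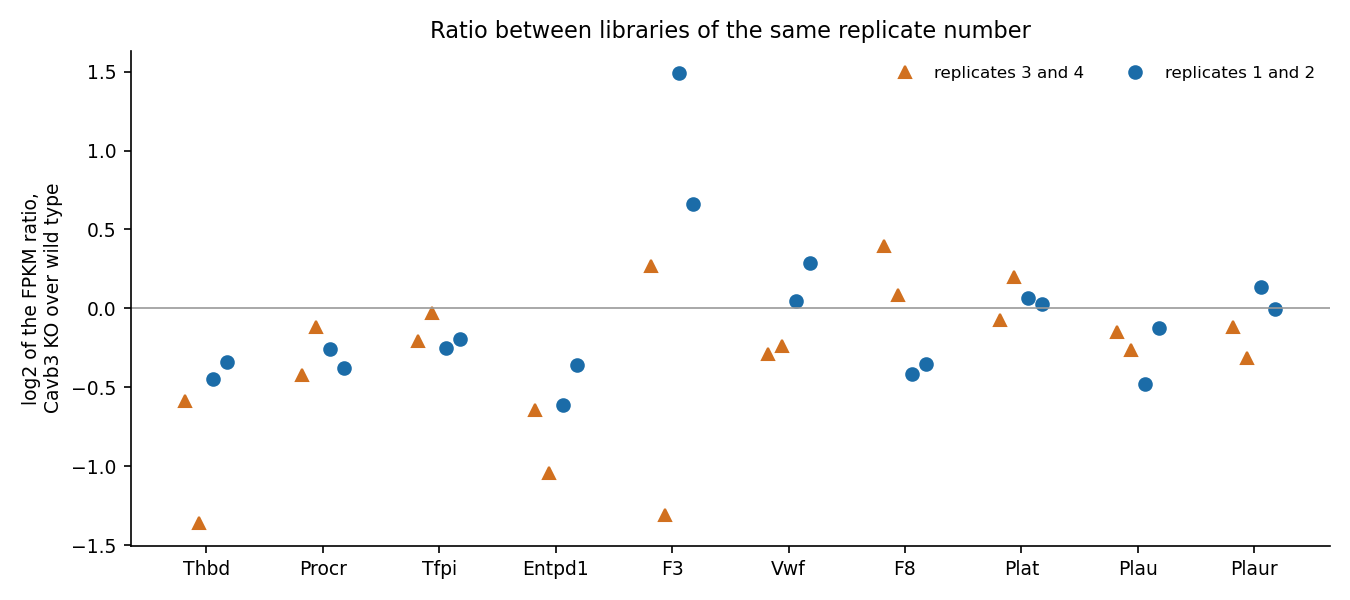
Log2 ratio of FPKM, Cavb3 KO over wild type, between libraries of the same replicate number (vertical axis), for the 9 genes and for Entpd1, with triangles for replicates 3 and 4 and circles for replicates 1 and 2. All 4 points lie below 0 for Thbd, Procr, Tfpi, Entpd1 and Plau, whereas F3 spans both sides.

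More of these genes passed between the replicate sets than between the genotypes. With genotype in the limma fit, Thbd, Procr, Tfpi, Plau and Plaur fell in replicates 3 and 4 relative to replicates 1 and 2, and Vwf rose. The background was wide, since 25.8% of tested genes fell and 19.8% rose in this comparison, 45.7% in all, so 6 of 9 is read against that share (7 of 9 and 54.4% at an unadjusted p under 0.05). Thbd averaged 43.7 ± 16.9 FPKM in replicates 3 and 4 and 82.2 ± 14.1 FPKM in replicates 1 and 2 (SD, n = 4 each), with a log2 difference of -0.97 ± 0.18 (SE, limma adjusted p = 0.00448). Plaur averaged 94.8 ± 11.6 and 154 ± 11.2 FPKM in replicates 3 and 4 and in replicates 1 and 2, a log2 difference of -0.70 ± 0.10 (SE, limma adjusted p = 0.00155). Procr averaged 156 ± 21.5 and 221 ± 28.5 FPKM in the same order, with -0.50 ± 0.07 (SE, limma adjusted p = 0.00139). These 3 genes also passed in the Cavb3 KO libraries alone and in the wild type libraries alone.

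Plau was at 16.0 ± 2.26 FPKM in replicates 3 and 4 and 25.2 ± 5.36 FPKM in replicates 1 and 2 (SD, n = 4 each; log2 difference -0.61 ± 0.15 SE, limma adjusted p = 0.0126), and Tfpi at 14.3 ± 0.856 and 17.3 ± 1.54 FPKM (-0.26 ± 0.05, limma adjusted p = 0.00671). Both passed in wild type alone and neither passed in Cavb3 KO alone (limma adjusted p = 0.155 and 0.216), and limma's test of the difference between genotypes gave adjusted p-values of 0.987 and 0.946. Vwf was the exception in direction, at 5.57 ± 0.665 FPKM in replicates 3 and 4 and 4.40 ± 0.474 FPKM in replicates 1 and 2. Its log2 difference of 0.28 ± 0.10 (SE) passed narrowly (limma adjusted p = 0.0451), and the call was lost when any wild type library or Cavb3 KO replicate 1 or 4 was left out (adjusted p of 0.0719 to 0.123). Within wild type alone it was 0.46 (adjusted p = 0.0176), and within Cavb3 KO alone 0.10 (adjusted p = 0.627), a difference that, as given above, did not pass. Plat (-0.26, limma adjusted p = 0.0879), F8 (0.08, adjusted p = 0.513) and F3 (-0.10, adjusted p = 0.855) did not pass.

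Every library of replicates 3 and 4 lay below every library of replicates 1 and 2 for Thbd, Procr, Tfpi and Plaur, as for 22.8% of tested genes. Other markers moved with the replicate sets as well. Endothelial markers summed to 1543 to 1839 FPKM in replicates 3 and 4 and to 1830 to 2374 FPKM in replicates 1 and 2. Of the 10, 7 had a negative estimate and 3 a positive one, with a median of -0.41, and Tie1 rose by 0.21 (limma adjusted p = 0.0134). The 4 smooth muscle markers summed to 1.80 to 2.41 FPKM in replicates 3 and 4, against 7.95 to 28.5 FPKM in replicates 1 and 2. The 7 microglia and macrophage markers summed to 5.46 to 8.87 FPKM in replicates 3 and 4, against 3.51 to 4.13 FPKM in replicates 1 and 2, and only Cd68 among them passed the filter. The part of these in the haemostasis values was not tested.

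Among the 9, Procr and Tfpi had the most similar pattern over the 8 libraries (r = 0.957 for log2(FPKM + 1)), then Thbd and Plaur (0.881) and Plau and Plaur (0.874). These correlations are over 8 libraries that fall into replicate sets and are descriptions. Of all tested genes, Ttyh3 was closest to Thbd (r = 0.998), Tmem19 to Plaur (0.992), C2cd2 to Tfpi (0.990), Cox5b to Procr (0.988) and Dph6 to Plau (0.980). Vegfa, an angiogenic growth factor, was closest to F3 (0.959), Gm14541 to F8 (0.958), 1190002N15Rik to Vwf (0.945) and Clpp to Plat (0.939).

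A further 62 haemostasis genes were examined by role, and 33 of them passed the filter. The plasma factors made mainly by liver were near 0: the 14 untested procoagulant genes, among them F2, F7, F9, F10 and the fibrinogen chains, did not exceed 0.490 FPKM in any library, nor did Plg, Proc or Serpinc1. Between the genotypes limma called 0 of the 33 (3 at an unadjusted p under 0.05, beside 5.45% of tested genes; limma-voom also called 0), and their median log2 difference was -0.08, beside -0.02 over all tested genes. The 8 other anticoagulant genes had 4 positive and 4 negative estimates with a median of 0.01. The 7 other genes listed as procoagulant were Lman1, Mcfd2, Ggcx, Vkorc1, Vkorc1l1, Ano6 and Xkr8, with no coagulation factor or fibrinogen chain among them. All 7 had negative estimates, with a median of -0.11, as did 6615 of the 11864 tested genes. With the replicate set as a term, 2 of the 33 were lower in Cavb3 KO, Entpd1 and Angpt2, where 0.371% of tested genes were called lower and 0.261% higher, and 13 of the 33 reached an unadjusted p under 0.05, beside 19.1% of tested genes. Entpd1 encodes CD39, which degrades the platelet activator ADP. Its genotype groups overlapped, at 6.89, 8.17, 2.66 and 2.06 FPKM in Cavb3 KO, against 10.5, 10.5, 4.17 and 4.25 FPKM in wild type. The log2 difference was -0.54 ± 0.09 (SE, limma adjusted p = 0.0474 with the set term and 0.930 without). Angpt2, a Tie2 ligand stored with von Willebrand factor in Weibel-Palade bodies, had -0.58 ± 0.08 (SE, adjusted p = 0.0415 with the set term and 0.827 without). Both calls were lost with the replicate number as a block, and when any wild type library or Cavb3 KO replicate 1 or 2 was left out.

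Of the wider list, the most abundant genes reported here were Angpt2 (406 ± 104 and 602 ± 122 FPKM in Cavb3 KO and wild type, SD, n = 4 each), Anxa5 (410 ± 11.3 and 412 ± 37.4 FPKM in Cavb3 KO and wild type), Edn1, Thbs1, Anxa2 (186 ± 47.6 and 186 ± 39.7 FPKM) and Pros1 (217 ± 22.7 and 215 ± 17.2 FPKM), the last a cofactor of activated protein C. Thbs1, thrombospondin 1, had 174 ± 62.2 and 269 ± 92.6 FPKM in Cavb3 KO and wild type (log2 difference -0.63, limma adjusted p = 0.896). Edn1, which encodes the vasoconstrictor endothelin 1, was at 243, 316, 92.0 and 63.3 FPKM in Cavb3 KO replicates 1 to 4, against 240, 395, 258 and 274 FPKM in wild type. Its lowest values were those of Cavb3 KO replicates 3 and 4, and the log2 difference of -0.97 between genotypes did not pass (limma adjusted p = 0.896, and 0.193 with the set term). Between replicates 3 and 4 and replicates 1 and 2 its means were 77.6 and 279 FPKM in Cavb3 KO and 266 and 318 FPKM in wild type, and limma's test of that difference between genotypes did not pass (adjusted p = 0.435). Gas6, a vitamin K-dependent relative of protein S, was the only one of the 33 whose genotype groups did not overlap, at 21.3 ± 1.03 FPKM in Cavb3 KO and 26.8 ± 4.28 FPKM in wild type (log2 difference -0.30, limma adjusted p = 0.827). It was named after its values were seen, and 4.14% of tested genes share this.

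Between the replicate sets, 16 of the 33 fell and 2 rose in replicates 3 and 4, beside the 25.8% and 19.8% of tested genes, and their median log2 difference was -0.24, beside -0.04 over all tested genes. The counts by role are read against the 45.7% called in all. In the procoagulant group Lman1, a cargo receptor for factors V and VIII, fell (-0.84 ± 0.10 SE), with Xkr8 (-0.54), Vkorc1l1 (-0.48) and Ano6 (-0.24), 4 of 7 in all. In the anticoagulant group Entpd1 (-1.25 ± 0.09), Ptgis (prostacyclin synthase, -0.72) and Hs3st1 (-0.68), an enzyme that makes the antithrombin-binding site of heparan sulphate, fell, 3 of 8. In the fibrinolysis group Serpine2 (-0.84), Thbs1 (-0.81), S100a10 (-0.65), Anxa2 (-0.57) and Plgrkt (-0.19) fell, while Serpini1 (0.59) rose, 6 of 7 in all. This group was not divided into genes that promote and genes that restrain fibrinolysis, so its counts give no direction of fibrinolysis. Anxa2 and S100a10 form a complex that binds plasminogen activator at the cell surface. Of the Weibel-Palade and platelet adhesion genes, Edn1 (-1.03 ± 0.35), Podxl (-0.64), Angpt2 (-0.56) and Rab3d (-0.34) fell and Cd63 (0.25) rose, 5 of 7. None of the 4 protease-activated receptor genes passed, and F2r, a thrombin receptor, had -0.20 (limma adjusted p = 0.101). All of these called genes had limma adjusted p-values between 2.7e-04 and 0.0422. Edn1 lost its call without any one of the Cavb3 KO libraries or wild type replicate 2 or 3 (adjusted p of 0.0519 to 0.123), with limma-voom, without a filter and with a filter at 5 FPKM. Plgrkt lost its call in all 8 cases of 1 library left out (adjusted p of 0.0562 to 0.122), and S100a10 without Cavb3 KO replicate 2 or wild type replicate 2 or 3 (adjusted p of 0.0552 to 0.0661). The other 15 called genes kept their calls in all 8 cases.

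**Figure D4:**
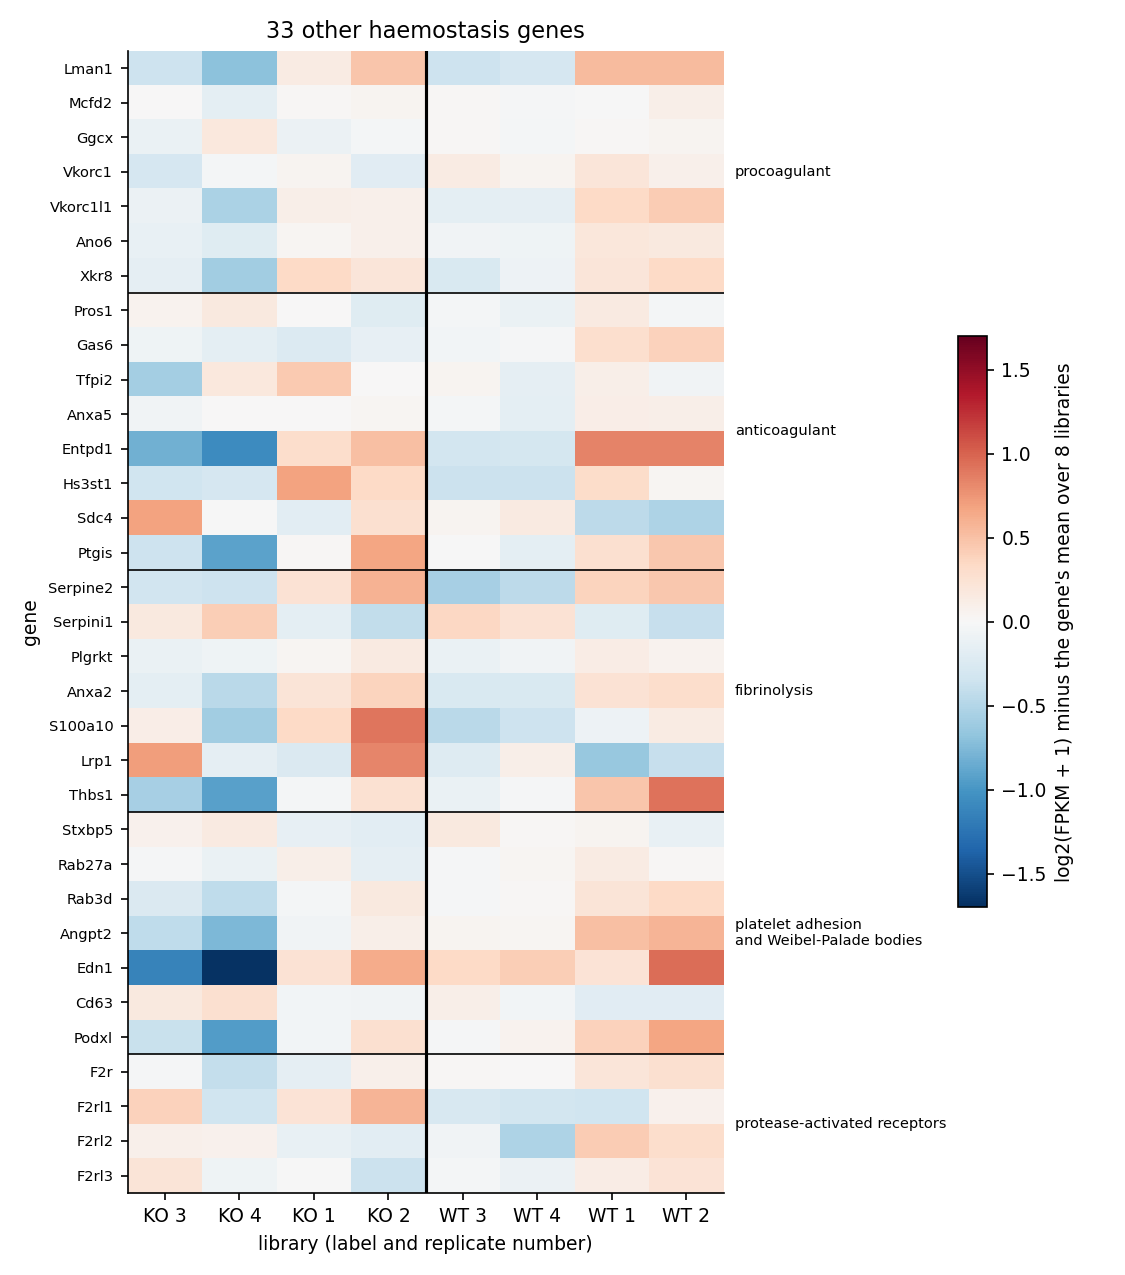
Level of the 33 tested genes of the wider list (rows, by role) in each library (columns, Cavb3 KO left of wild type, replicates 3 and 4 left of replicates 1 and 2), as log2(FPKM + 1) minus the gene's mean, red above and blue below. Lman1, Entpd1, Serpine2 and Anxa2 are bluer in replicates 3 and 4 of both genotypes, and Edn1 in Cavb3 KO replicate 4 is the darkest cell, 1.67 below its mean.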

How the data were processed

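RNA of cultured BMECs was made into NEBNext Ultra libraries, per the labels' protocols. The submitters' processing notes name HISAT2 (2.0.5), an aligner. For the counting tool, its strand setting, the build and the annotation, the sources used here give none. The authors deposited a table of FPKM for each library.

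Symbols were found for 54409 of 54532 identifiers. Coordinates and exon lengths are from GENCODE M21 (GRCm38), and no exon of the 9 genes overlaps another gene there. FPKM times exon length was a whole multiple of 1 constant per library for 96.5% to 96.8% of values above 0 (tolerance 0.01), which gave implied depth and recovered reads.

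Genes with at least 1 FPKM in at least 4 libraries were tested with limma 3.58.1 (R 4.3.3) on log2(FPKM + 1), a scale that understates changes of low genes, with variance trend and robust moderation. Benjamini-Hochberg adjustment was over all 11864 genes with a threshold of 0.05. The genotype fit held no covariate, and the fit of replicates 3 and 4 against 1 and 2 held genotype. Fits were tested on simulated data, in which the genotype fits met no difference between replicate sets. That test therefore does not give the power of the genotype fit without a covariate in these data. Same-numbered libraries deviated together (r = 0.411, 0.754, 0.405 and 0.516), so the numbers were taken to pair the libraries (criterion: over 0.1 for each pair). Same-numbered libraries also share a replicate set, so the sets alone could meet this criterion, and it cannot show pairing by number. Cavb3 KO replicate 2 alone correlated best with its own number, and replicates 1, 3 and 4 with wild type replicates 2, 4 and 3, of the same replicate set. Alternatives were another pseudocount, filters, normalizations, limma-voom on recovered reads with library totals as scale, the replicate block, the set term, and leaving out libraries.

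The 9 genes and all lists were chosen with earlier results of these data known. Named were the 9 genes, Cacnb3, Ddx3y, Xist, the called or 6 most abundant of the wider list, and the nearest gene by correlation. Gas6, F2r, Cd68, Pdgfrb, Slc1a3, Tie1 and the plasma factors near 0 were named after their values were seen. A gene of the wider list is not reported here and is left out of its counts. Figures used Python 3.11.15 and matplotlib 3.10.9.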

Additional observations from a re-analysis of the deposited data

How the results depend on the processing

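Between the genotypes limma called 0 of the 9 genes under all 27 alternatives. Thbd, Procr, Tfpi and Plau kept a negative estimate under all of them. F8 was not tested with the filter at 5 FPKM or with either replicate set alone, so 8 of the 9 were tested there. With the replicate set as a term, 75 genes were called in place of 0, 2 of them in the wider list, and with this term and 1 library left out, an alternative chosen after seeing the data, 0 to 330 genes and 0 to 4 of the wider list were called (330 and 4 without Cavb3 KO replicate 3, 91 and 2 without Cavb3 KO replicate 4). Replicates 1 and 2 alone gave 1 call. With the replicate number as a block 0 genes were called, as without a covariate, so the calls made with the set term were lost. The estimates of Vwf, F3, F8, Plat and Plaur changed sign in some settings. Over the libraries left out in turn and without the set term, the ranges were -0.13 to 0.05 for Vwf, -0.04 to 0.56 for F3, -0.07 to 0.01 for F8, -0.05 to 0.16 for Plat and -0.23 to 0.12 for Plaur. With it they were -0.12 to 0.02 for Vwf, -0.12 to 0.60 for F3, -0.10 to 0.01 for F8, -0.02 to 0.13 for Plat and -0.15 to 0.02 for Plaur. Limma-voom gave 0.01 for Vwf. Replicates 1 and 2 alone gave 0.14 for Vwf and 0.07 for Plaur, and replicates 3 and 4 alone gave -0.43 for F3.

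Between the replicate sets, 3810 to 5352 genes, 5 to 7 of the 9 and 15 to 18 of the wider list were called with 1 library left out. A filter at 5 FPKM gave 3530 calls, wild type alone 3133, and Cavb3 KO alone 1026, with 3 of the 9 and 6 of the wider list. Vwf lost its call without a filter (adjusted p = 0.115), and Plat gained one with quantile normalization (-0.36, adjusted p = 0.0179). F3 ranged from -0.46 to 0.26 over the libraries left out and was 0.57 in wild type alone. The cause of these changes was not tested. The fewest recovered reads in a library were 190 for F3 and 224 for F8, and the part of counting error in their spread was not tested.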
